A study of Mus musculus with 14 samples.

Results

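The genes described here are 48 genes of the lysosome, of the V-ATPase that acidifies it and of autophagy, the process that delivers cytoplasm to it, in mouse bone marrow monocytes. They were taken from the gene-level count table by symbol: 3 MiT transcription factors, 18 lysosomal hydrolases and lipid-handling proteins, 5 lysosomal membrane proteins, 11 V-ATPase subunits and 11 autophagy factors. All 48 were found among 55487 gene rows, and all 48 were among the 14754 genes with enough counts to be tested. The symbols and positions come from GENCODE M21 on GRCm38, the assembly of the mm10 build named in the submitters' processing notes.

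The lysosome is the acidic compartment in which macromolecules taken up from outside, or delivered from inside by autophagy, are broken down by hydrolases. Its low pH is made by the V-ATPase, a rotary proton pump whose cytosolic V1 sector hydrolyses ATP and whose membrane Vo sector carries protons. The transcription factors TFEB, TFE3, MITF and TFEC form the MiT family, which binds E-box sequences in promoters of many lysosome and autophagy genes. Monocytes and macrophages rely on this system to digest what they engulf, and IL-4 is a cytokine that drives them towards an alternatively activated state.

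Monocytes were isolated with a kit from the bone marrow of mouse legs, 90-95% pure by flow cytometry per the labels, and kept ex vivo for 3 h. The 4 groups were AhR-deficient cells with 20 ng/mL of mouse IL-4, AhR-deficient cells in medium (n = 3 each, numbers 4, 5 and 6), wild-type cells with the same IL-4 and wild-type cells in medium (n = 4 each, numbers 1, 2, 3 and 7). AhR is the aryl hydrocarbon receptor, a transcription factor activated by small ligands, and the question posed was how its absence bears on the IL-4 response. Neither the strain, the age of the mice, the allele nor whether a library is 1 animal or a pool is given in the sources used here, so p-values measure the spread between these libraries. Per-library values below follow the order of these numbers. Total counts ran from 33432502 to 42885079 per library, and levels are given as CPM, the gene's count relative to the library total after TMM scaling. Only the levels of Xist and Ddx3y, and the percentages given for pseudogenes and overlapping genes, use the library total without that scaling.

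Some facts of the libraries bear on every result. Socs1, a direct STAT6 target, rose with IL-4 by 7.02 ± 0.22 on the log2 scale in AhR-deficient and 7.57 ± 0.20 in wild-type cells (adjusted p = 4.96e-11 and 6.76e-12, edgeR). Ahr itself was higher under the AhR-deficient label than in wild type, with IL-4 at 41.9 ± 4.43 CPM, against 25.5 ± 1.40 CPM in wild type, and without it at 20.9 ± 5.23 CPM, against 13.02 ± 1.60 CPM (SD, n = 3 and 4; adjusted p = 0.0270 with IL-4 and 0.0144 in medium, edgeR). Which part of the gene the allele alters is not stated, so this total does not check the deletion, and "AhR-deficient" is used as the label of the libraries. Xist, the RNA of the inactive X chromosome, was at 979 to 1265 CPM in the 6 AhR-deficient libraries and at 0.0241 to 2.16 CPM in the 8 wild-type libraries, and the Y-linked Ddx3y at 0 and at 119 to 140.5 CPM. Genotype and sex type therefore cannot be told apart in any genotype comparison below. Monocyte markers were present in every library, with a summed level of 14395 to 16008 CPM in AhR-deficient cells with IL-4, 22841 to 26212 in AhR-deficient cells in medium, 14455 to 15771 in wild-type cells with IL-4 and 22647 to 25651 in wild-type cells in medium. Lyz2 alone had means of 9373, 16616, 8614.5 and 16720 CPM, in the same order, so these sums depend strongly on 1 gene. Of 9 monocyte markers, 5 fell with IL-4 in AhR-deficient cells and 6 in wild-type cells. Ccr2 had a higher mean with IL-4, at 508 against 381 CPM in AhR-deficient and 1714 against 1277 CPM in wild-type cells. The means of all the others were lower with IL-4 in both genotypes. Of 6 macrophage markers tested, 3 rose in each. Of 5 dendritic cell markers tested, 2 rose in AhR-deficient and 1 in wild-type cells. Flt3 rose in both, to 80.6 ± 5.64 CPM with IL-4, against 33.1 ± 0.969 CPM without it, in AhR-deficient cells and to 76.5 ± 10.1 CPM, against 34.6 ± 6.996 CPM, in wild-type cells. The dendritic cell list summed to 127.8 to 135.9 CPM with IL-4, against 67.6 to 73.4 CPM without it, in AhR-deficient cells, and to 104.5 to 128.2 CPM, against 53.8 to 96.96 CPM, in wild-type cells. Flt3 had the highest mean on this list in every group. Of the others tested, Cd209a had a higher mean with IL-4 in both genotypes. Zbtb46 had a lower one, at 4.22 against 6.75 CPM in AhR-deficient and 2.94 against 4.26 CPM in wild-type cells. Clec9a was higher in AhR-deficient and lower in wild-type cells, and Siglech the reverse. No marker of neutrophils, eosinophils, basophils or mast cells, B or plasma cells, T or NK cells, erythroid cells or megakaryocytes passed in either. Their part in the results on the lysosomal genes was not tested, and in bulk RNA fewer cells of a type and less RNA per cell cannot be told apart. Eosinophil markers summed to 14.5 to 77.1 CPM in the AhR-deficient libraries, against 144.8 to 196.2 CPM in wild-type numbers 1 and 2 and 33.3 to 68.4 CPM in wild-type numbers 3 and 7.

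After 3 h of IL-4 the largest changes among these genes went in both directions. Tfec, an MiT factor of myeloid cells, rose 5.16-fold in AhR-deficient and 7.88-fold in wild-type cells, and with it rose Mitf and the genes of 4 V-ATPase subunits, led by Atp6v0a1. Gpnmb, a glycoprotein of the lysosomal membrane, fell 4.49-fold and 4.90-fold, and the autophagy receptor Sqstm1 and the autophagy kinase Ulk1 fell too. At an adjusted p under 0.05 in edgeR's quasi-likelihood test, 12 members rose and 10 fell in AhR-deficient cells, where 29.5% of all genes tested were called. In wild-type cells 11 rose and 17 fell, where 35.9% of all genes were called. The called shares of the members were 45.8% and 58.3%. The median log2 fold change over the 48 members was -0.04 in AhR-deficient and 0.01 in wild-type cells, beside -0.01 and 0.01 over all genes tested. Called upwards were 15.4% and downwards 14.2% of all genes in AhR-deficient cells, and 19.4% and 16.5% in wild-type cells. Counting libraries that did not overlap, 13 members were above and 16 below medium in AhR-deficient cells, where 22.3% and 21.4% of all genes were (43.7% together), and 12 above and 15 below in wild-type cells, where 18.4% and 14.9% were (33.2% together). With libraries of 1 number treated as a pair, 13 members rose and 16 fell in AhR-deficient cells (36.2% of all genes called) and 15 rose and 20 fell in wild-type cells (42.7% of all genes called). The pairing was weak for wild-type number 7, whose libraries correlated at 0.118 and matched another number better than each other.

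Both genotypes called the same direction for 19 members. How many of all genes tested agreed in this way was not counted, so the agreement is not shown to be particular to the members. Tfec, Mitf, Ctsc, Ctss, Npc1, Atp6v0a1, Atp6v1a, Atp6v1b2, Atp6v1h and Atg16l1 rose in both, which is 10 of the 12 that rose in AhR-deficient cells and 10 of the 11 that rose in wild-type cells. Ctsb, Ctsd, Gla, Lamp2, Gpnmb, Ulk1, Atg7, Gabarapl1 and Sqstm1 fell in both, which is 9 of 10 in AhR-deficient and 9 of 17 in wild-type cells. None was called in opposite directions, and 17 members passed in neither genotype. Without wild-type numbers 1 and 2, where eosinophil markers were highest, 13 rose and 12 fell in AhR-deficient cells and 10 rose and 12 fell in wild-type cells. These counts are given without the share of all genes called in that fit.

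**Figure D1:**
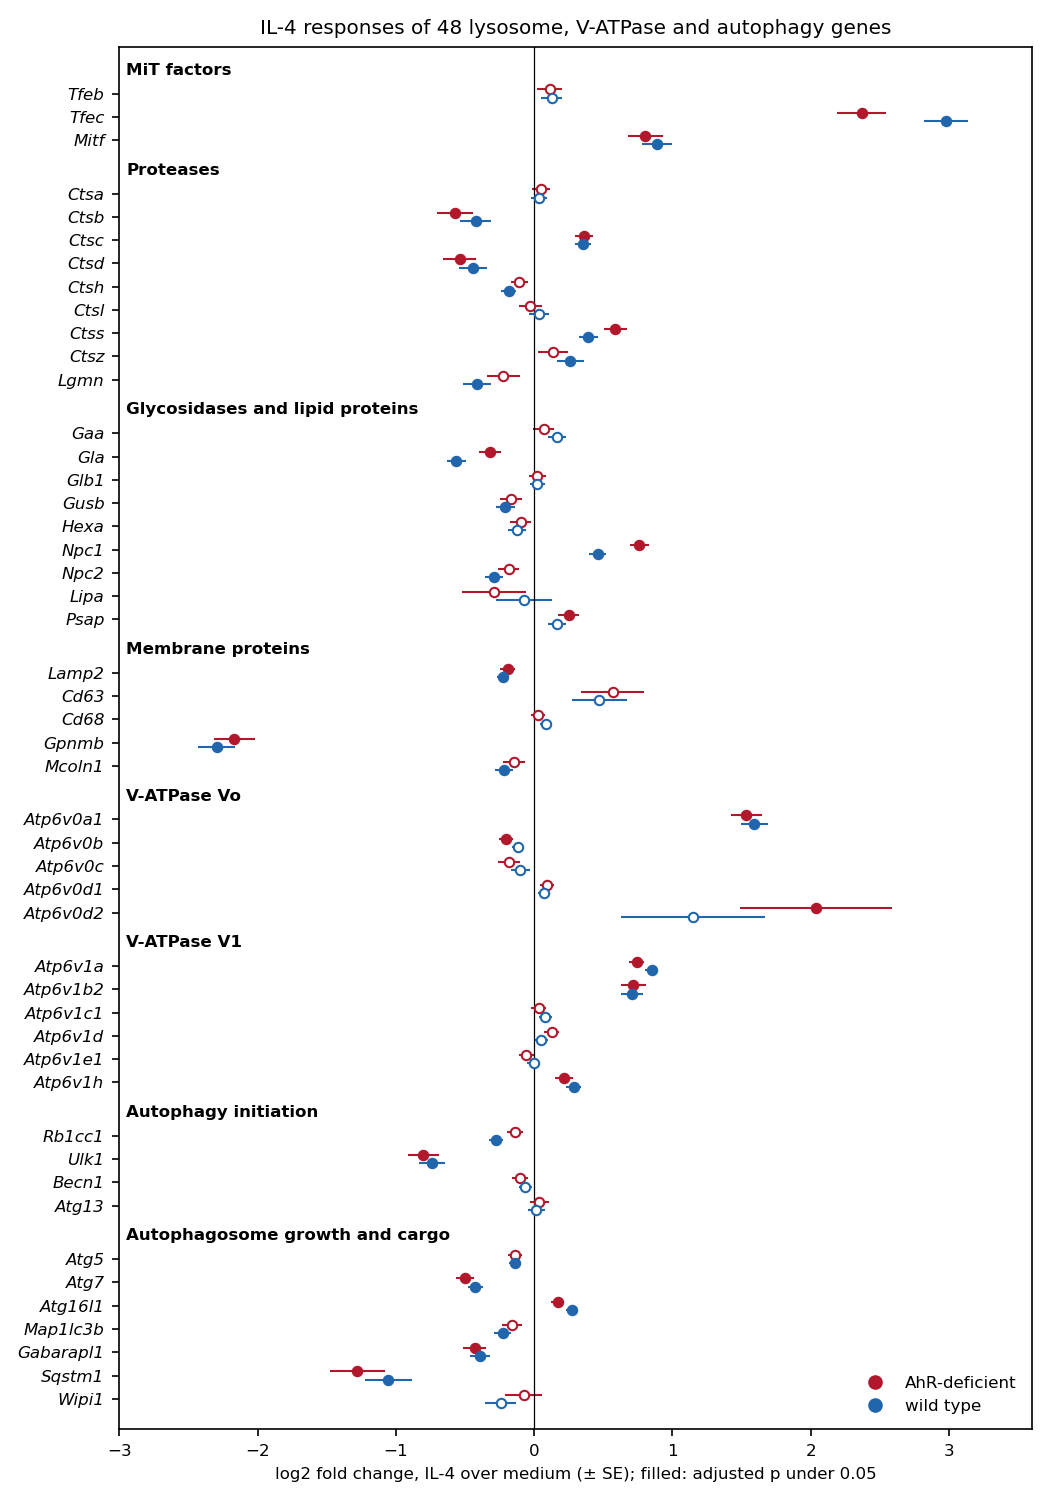
Log2 fold change of each of the 48 genes, IL-4 over medium, in AhR-deficient (red) and wild-type cells (blue), with the standard error as a bar; filled points have an adjusted p under 0.05. Tfec and Atp6v0a1 stand to the right in both genotypes, Gpnmb and Sqstm1 to the left, and most hydrolases lie near 0.

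Of the 3 MiT factors, 2 rose with IL-4 in each genotype and Tfeb did not pass in either. All genes called up were 15.4% in AhR-deficient and 19.4% in wild-type cells. Tfec (chr6:16833373-16898441, minus strand) had 236, 184 and 188 CPM with IL-4, against 50.4, 32.1 and 35.2 CPM in medium, in the AhR-deficient libraries. It had 185, 191, 234 and 208 CPM with IL-4, against 19.9, 26.4, 30.4 and 27.1 CPM in medium, in the wild-type libraries. No library with IL-4 overlapped one in medium, and number 4 was the highest of the AhR-deficient cells in both conditions. The log2 fold change was 2.37 ± 0.18 (SE) in AhR-deficient cells (adjusted p = 2.42e-07, edgeR) and 2.98 ± 0.16 in wild-type cells (adjusted p = 4.49e-09). Per kilobase of exon, Tfec stood at 36.2 and 36.6 CPM with IL-4 in AhR-deficient and wild-type cells, above Mitf at 18.2 and 21.3 and Tfeb at 16.5 and 14.95. In medium it was the lowest of the 3, at 7.01 and 4.64 CPM per kilobase, against 10.4 and 11.5 for Mitf and 15.2 and 13.7 for Tfeb.

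Mitf (chr6:97807052-98021349), the family member known from pigment cells, mast cells and osteoclasts, had 106, 111 and 122 CPM with IL-4, against 63.8, 61.8 and 68.5 CPM in medium, in the AhR-deficient libraries. It had 127, 118, 150.2 and 134 CPM with IL-4, against 62.6, 62.3, 90.3 and 70.4 CPM in medium, in the wild-type libraries. Again no library with IL-4 overlapped one in medium, with log2 fold changes of 0.80 ± 0.13 (adjusted p = 2.33e-04) and 0.89 ± 0.11 (adjusted p = 1.97e-05) in AhR-deficient and wild-type cells. Tfeb (chr17:47737030-47792419), the best known activator of lysosomal genes, had 79.8, 100.0 and 100.4 CPM with IL-4, against 81.9, 86.7 and 90.7 CPM in medium, in the AhR-deficient libraries. It had 80.5, 81.7, 87.8 and 89.1 CPM with IL-4, against 81.8, 73.4, 83.8 and 71.6 CPM in medium, in the wild-type libraries. Its libraries overlapped in both genotypes, with log2 fold changes of 0.11 ± 0.09 (adjusted p = 0.390) and 0.13 ± 0.08 (adjusted p = 0.228).

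Promoter windows of the 2 factors that differ most in response are shown because each holds a STAT6-type motif. Each window runs from 250 bases before to 50 after a RefSeq start on GRCm38.p6, 5′ to 3′ on the gene's strand, and capitals mark TTC and GAA with any 4 bases between them, the spacing that IL-4-activated STAT6 is known to bind.
Tfec, chr6:16898392-16898691, minus strand: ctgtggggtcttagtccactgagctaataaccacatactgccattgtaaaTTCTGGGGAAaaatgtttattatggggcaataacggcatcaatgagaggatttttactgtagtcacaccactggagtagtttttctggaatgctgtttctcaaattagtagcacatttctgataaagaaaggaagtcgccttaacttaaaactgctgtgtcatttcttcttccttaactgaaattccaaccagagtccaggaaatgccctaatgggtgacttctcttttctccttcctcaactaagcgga
Tfeb, chr17:47785494-47785793, plus strand: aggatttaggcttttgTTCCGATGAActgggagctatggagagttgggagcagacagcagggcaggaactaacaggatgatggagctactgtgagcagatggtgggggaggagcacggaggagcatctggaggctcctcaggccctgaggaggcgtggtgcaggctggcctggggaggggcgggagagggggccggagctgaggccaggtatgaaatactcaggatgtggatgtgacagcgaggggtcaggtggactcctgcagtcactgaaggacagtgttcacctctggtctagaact
The match lies 200 bases before the Tfec start and 234 before this Tfeb start, so the induced and the not called factor both hold it. This Tfeb window lies within the gene as placed above, while another of its windows spans the first base of the gene. The other windows of Tfeb, and those of Mitf, have neither this motif nor the E-box CACGTG. Searched on both strands, which for these palindromic patterns read alike, the STAT6-type motif was present in 5.26% of the 38 members with a window and in 8.01% of 27025 genes.

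Some V-ATPase genes rose. Of 11 subunit genes, 5 rose and 1 fell in AhR-deficient cells, and 4 rose and 0 fell in wild-type cells. All genes called up and down were 15.4% and 14.2% in AhR-deficient cells, and 19.4% and 16.5% in wild-type cells. The median log2 fold change of the 11 was 0.13 and 0.08, beside -0.01 and 0.01 over all genes tested. Atp6v0a1 (chr11:101009452-101063719), which encodes an isoform of the large Vo subunit that couples rotation to proton flow and steers the pump to its compartment, had 281, 295 and 257 CPM with IL-4, against 94.96, 97.5 and 94.9 CPM in medium, in the AhR-deficient libraries. It had 223, 214, 249.6 and 308 CPM with IL-4, against 77.1, 80.98, 79.3 and 92.3 CPM in medium, in the wild-type libraries. The groups were far apart in both genotypes, with log2 fold changes of 1.54 ± 0.11 (adjusted p = 2.22e-07) and 1.59 ± 0.10 (adjusted p = 2.27e-08), about 2.90-fold and 3.02-fold. The other isoforms of this subunit had small or opposite changes. Tcirg1, the isoform known from osteoclasts, fell by 0.30 ± 0.09 (adjusted p = 0.0177) and by 0.33 ± 0.08 (adjusted p = 0.00310), and Atp6v0a2 rose by 0.13 ± 0.04 (adjusted p = 0.0353) and 0.13 ± 0.04 (adjusted p = 0.0163) on the log2 scale. Per kilobase of exon, Atp6v0a1 stood at 42.4 and 37.9 CPM with IL-4 and 14.6 and 12.6 in medium, and Tcirg1 at 39.97 and 37.2 with IL-4 and 49.2 and 46.8 in medium, in AhR-deficient and wild-type cells.

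In the V1 sector the subunits of the catalytic ring rose. Atp6v1a (chr16:44085402-44139705), the catalytic A subunit, had 448, 414 and 427 CPM with IL-4, against 271, 247 and 253 CPM in medium, in the AhR-deficient libraries. It had 412, 410.4, 425 and 432 CPM with IL-4, against 217, 241, 244 and 230.1 CPM in medium, in the wild-type libraries. Its replicates were tight and did not overlap, giving 0.74 ± 0.06 (adjusted p = 2.37e-07) and 0.85 ± 0.05 (adjusted p = 8.33e-09). Atp6v1b2 (chr8:69088646-69113711), the B subunit that alternates with A in the ring, had 983, 875 and 965 CPM with IL-4, against 591, 542 and 584 CPM in medium, in the AhR-deficient libraries. It had 812, 812, 975 and 881 CPM with IL-4, against 479.8, 507, 617 and 529.7 CPM in medium, in the wild-type libraries. Both genotypes gave nearly the same log2 change, 0.72 ± 0.09 (adjusted p = 4.42e-05) and 0.71 ± 0.08 (adjusted p = 9.86e-06). Atp6v1h, the regulatory H subunit, rose by 0.22 ± 0.06 (adjusted p = 0.0181) and 0.29 ± 0.05 (adjusted p = 9.36e-04), and the first call is lost without AhR-deficient number 4 with IL-4 (log2 0.17, adjusted p = 0.0855) or number 5 in medium.

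The stalk genes Atp6v1c1, Atp6v1d and Atp6v1e1 and the Vo genes Atp6v0c and Atp6v0d1, which encode the proton-carrying ring and the d subunit, passed in neither genotype, with log2 fold changes between -0.18 and 0.13. Atp6v0b, another ring subunit, fell in AhR-deficient cells by 0.20 ± 0.05 (adjusted p = 0.00639) and had -0.12 ± 0.04 in wild-type cells (adjusted p = 0.0511, or 0.0423 with the pairs). With the pairs, Atp6v0c also fell in AhR-deficient cells (log2 -0.18, adjusted p = 0.0146). The named pseudogenes of Atp6v0c were counted at 0.343% and 0.00884% of it, and whether reads were lost to them was not tested. Atp6v0d2, an isoform known from osteoclasts and macrophages, was close to the limit of these libraries, at 1.32, 0.425 and 0.762 CPM with IL-4, against 0.359, 0.0516 and 0.195 CPM in medium, in the AhR-deficient libraries. It had 0.279, 0.226, 0.420 and 0.423 CPM with IL-4, against 0.114, 0.0827, 0.170 and 0.229 CPM in medium, in the wild-type libraries. Levels with IL-4 lay above those in medium within each number pair, at a log2 fold change of 2.04 ± 0.55 (adjusted p = 0.0115) in AhR-deficient cells, lost without number 4 with IL-4 (adjusted p = 0.0658), and 1.15 ± 0.52 (adjusted p = 0.107, or 0.0137 with the pairs) in wild-type cells. With the pairs the V-ATPase counts were 5 up and 2 down in AhR-deficient and 5 up and 1 down in wild-type cells. In that fit 36.2% and 42.7% of all genes were called.

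**Figure D2:**
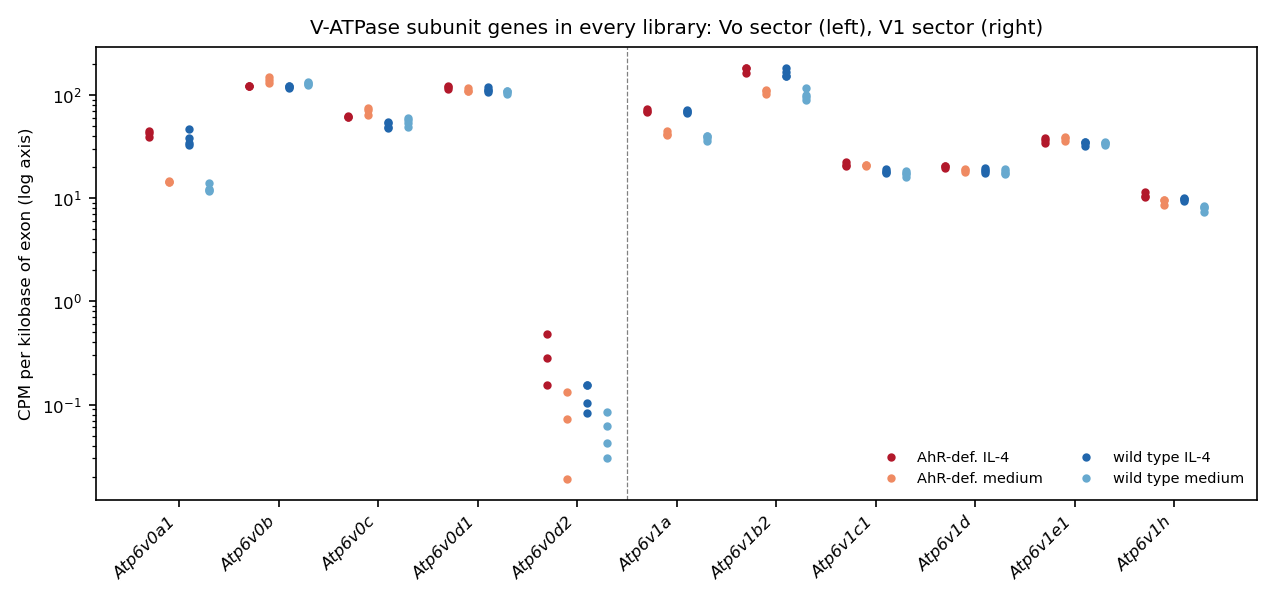
CPM per kilobase of exon (log axis) of the 11 V-ATPase subunit genes in every library, Vo sector left of the dashed line and V1 sector right of it, coloured by group. Atp6v0a1, Atp6v1a and Atp6v1b2 are higher in all libraries with IL-4, and Atp6v0d2 lies more than a log10 unit below every other subunit gene.

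The windows of 3 V-ATPase genes are shown, 2 induced ones and Atp6v0d1, which was not called; Atp6v1a and Atp6v0d1 were chosen after their values were seen, because they hold the E-box. Capitals mark CACGTG.
Atp6v0a1, chr11:101010148-101010447, plus strand: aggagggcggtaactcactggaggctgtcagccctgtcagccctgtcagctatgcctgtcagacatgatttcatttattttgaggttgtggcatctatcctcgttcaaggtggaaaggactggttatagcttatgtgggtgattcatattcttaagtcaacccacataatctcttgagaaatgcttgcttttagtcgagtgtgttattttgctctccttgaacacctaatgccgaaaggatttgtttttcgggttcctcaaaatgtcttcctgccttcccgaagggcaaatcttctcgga
Atp6v1a, chr16:44139210-44139509, minus strand: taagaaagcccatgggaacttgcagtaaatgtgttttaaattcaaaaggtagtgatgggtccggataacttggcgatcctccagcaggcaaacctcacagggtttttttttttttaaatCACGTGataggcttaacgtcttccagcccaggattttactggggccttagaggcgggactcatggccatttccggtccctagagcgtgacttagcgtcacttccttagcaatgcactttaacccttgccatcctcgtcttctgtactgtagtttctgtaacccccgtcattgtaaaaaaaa
Atp6v0d1, chr8:105566015-105566314, minus strand: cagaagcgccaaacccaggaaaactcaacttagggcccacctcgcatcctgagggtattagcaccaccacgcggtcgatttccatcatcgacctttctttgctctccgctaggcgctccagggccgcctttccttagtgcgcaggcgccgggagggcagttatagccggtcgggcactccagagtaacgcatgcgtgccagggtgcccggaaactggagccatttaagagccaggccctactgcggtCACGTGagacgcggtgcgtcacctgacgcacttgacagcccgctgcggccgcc
The window of Atp6v0a1, with the largest change of the 3, has no match. It is the only window of this gene and lies wholly within the gene as placed above, as does the only window of Atp6v1a. The most upstream GENCODE starts of both genes were therefore not searched. In Atp6v1a the match begins 131 bases and in Atp6v0d1 3 bases before the start. Across the members, 13 of 38 with a window (34.2%) hold CACGTG, against 8.09% of 27025 genes and 7.15% of 32851 windows. The 13 are Atg5, Atg7, Atp6v0b, Atp6v0d1, Atp6v1a, Ctsa, Ctsd, Ctsl, Gaa, Gla, Glb1, Lgmn and Mcoln1. Atp6v1a alone of these was called up with IL-4 in either genotype, 7 were called down in at least 1 genotype and 5 in neither. Of all 48 members, 10 rose in both genotypes, 2 in AhR-deficient cells only and 1 in wild-type cells only. In the same order, 9, 1 and 8 fell, and 17 passed in neither. The 10 members without a window could not be searched, among them Npc1, Atp6v1b2, Atp6v1h and Atg16l1, which rose in both genotypes. Whether members with the E-box fell more often than the others was not tested. The CLEAR element is a longer palindrome with CACGTG at its centre. Only exact matches to 1 fixed form of it were counted, in 0 of the 38 and in 0.37% of all genes. Forms that differ from it in any base were not searched, so the 0 does not show that these windows lack CLEAR elements. Motif matches describe letters in these windows and do not show binding.

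Lysosomal proteases divided. Of 9 genes, 2 rose and 2 fell in AhR-deficient cells and 3 rose and 4 fell in wild-type cells, with medians of -0.03 and 0.03. All genes called in either direction were 29.5% in AhR-deficient and 35.9% in wild-type cells. Ctss (chr3:95526786-95556403), the cathepsin that trims the invariant chain of MHC class II, had 1599, 1534 and 1767 CPM with IL-4, against 989, 1034 and 1238 CPM in medium, in the AhR-deficient libraries. It had 1484, 1525, 1478 and 1564 CPM with IL-4, against 1185, 1189, 1055 and 1181 CPM in medium, in the wild-type libraries. IL-4 libraries were higher throughout, by 0.59 ± 0.08 (adjusted p = 8.78e-05) and 0.39 ± 0.07 (adjusted p = 5.94e-04) on the log2 scale. Ctsc, which activates serine proteases of granules, rose by 0.36 ± 0.07 (adjusted p = 0.00100) and 0.35 ± 0.06 (adjusted p = 3e-04), to 2064 ± 162 CPM in AhR-deficient and 1891 ± 88.6 CPM in wild-type cells with IL-4 (SD, n = 3 and 4).

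Ctsb (chr14:63122462-63145923), a cysteine protease with broad specificity, went the other way. It had 1198, 1068 and 1126 CPM with IL-4, against 1494 to 1806 CPM in medium, in the AhR-deficient libraries. It had 769, 866, 1028 and 850.4 CPM with IL-4, against 936, 1184, 1409 and 1181 CPM in medium, in the wild-type libraries. The libraries did not overlap in AhR-deficient cells (-0.57 ± 0.13, adjusted p = 0.00431) and did overlap in wild-type cells (-0.42 ± 0.11, adjusted p = 0.00949). Ctsd, the aspartic protease of the lysosome, fell by 0.54 ± 0.12 (adjusted p = 0.00327) and 0.44 ± 0.10 (adjusted p = 0.00376). Lgmn, the asparagine-specific legumain, and Ctsh, an aminopeptidase, fell in wild-type cells by 0.41 ± 0.10 (adjusted p = 0.00630) and 0.18 ± 0.06 (adjusted p = 0.0179). In AhR-deficient cells they had -0.22 ± 0.12 (adjusted p = 0.191, or 0.0181 with the pairs) and -0.11 ± 0.06 (adjusted p = 0.246). Ctsz, a carboxypeptidase, had 0.26 ± 0.10 in wild-type cells (adjusted p = 0.0467), a call kept in 4 of 14 fits that left out 1 library, and 0.14 ± 0.11 in AhR-deficient cells (adjusted p = 0.404). Ctsa, the protective protein of galactosidase and neuraminidase, and Ctsl passed in neither.

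Among 9 glycosidases and lipid-handling proteins, 2 rose and 1 fell in AhR-deficient cells and 1 rose and 3 fell in wild-type cells, or 33.3% and 44.4% called, near the 29.5% and 35.9% of all genes. The 2 Niemann-Pick type C proteins, which together export cholesterol from the lysosome, differed. Npc1 (chr18:12189692-12236400), the membrane transporter, had 216, 225 and 212 CPM with IL-4, against 118, 133 and 135 CPM in medium, in the AhR-deficient libraries. It had 168, 185, 194 and 191 CPM with IL-4, against 137, 143, 131 and 126 CPM in medium, in the wild-type libraries. No library overlapped, and the log2 fold change was 0.76 ± 0.07 (adjusted p = 1.54e-06) and 0.46 ± 0.06 (adjusted p = 3.22e-05). Npc2, the soluble carrier that hands cholesterol to it, fell in wild-type cells by 0.29 ± 0.07 (adjusted p = 0.00318) and had -0.18 ± 0.08 in AhR-deficient cells (adjusted p = 0.0879, or 0.00792 with the pairs). Npc1 shares 511 exon bases with Rmc1 on the opposite strand, whose count was 25.5% of that of Npc1.

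Gla (chrX:134588149-134601125), the X-linked alpha-galactosidase that is deficient in Fabry disease, had 51.2, 43.5 and 45.7 CPM with IL-4, against 58.02, 54.3 and 62.7 CPM in medium, in the AhR-deficient libraries. It had 34.4, 39.05, 38.4 and 37.8 CPM with IL-4, against 59.6, 57.9, 50.5 and 53.1 CPM in medium, in the wild-type libraries. Each library with IL-4 was below those in medium, by 0.32 ± 0.08 (adjusted p = 0.00797) and 0.56 ± 0.07 (adjusted p = 2.36e-05). Psap, the precursor of the saposins that present lipids to hydrolases, was the highest member per kilobase of exon, at a mean of 2403 CPM per kilobase over the 14 libraries. It rose in AhR-deficient cells by 0.25 ± 0.08 (adjusted p = 0.0210), a call lost without number 5 or 6 with IL-4 or number 4 or 5 in medium (highest adjusted p = 0.0864). In wild-type cells it had 0.16 ± 0.07 (adjusted p = 0.0650, or 0.00920 with the pairs).

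Gusb, the beta-glucuronidase, fell in wild-type cells by 0.21 ± 0.07 (adjusted p = 0.0340), a call kept in 9 of 14 fits that left out 1 library, and with the pairs also in AhR-deficient cells (adjusted p = 0.0114). Lipa, the acid lipase that frees cholesterol from its esters, varied widely between libraries, at 219 ± 22.9 and 268 ± 39.3 CPM in AhR-deficient cells with IL-4 and in medium, and 177 ± 42.1 and 186 ± 59.1 CPM in wild-type cells. Its log2 fold change of -0.29 ± 0.23 in AhR-deficient cells had an adjusted p of 0.396, or 0.00612 with the pairs. Gaa, Glb1 and Hexa, which break down glycogen and glycolipids, passed in neither genotype, with log2 fold changes between -0.12 and 0.17. With the pairs, Gaa rose (adjusted p = 0.0238) and Hexa fell (adjusted p = 0.0442) in wild-type cells.

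Of 5 membrane proteins, 2 fell in AhR-deficient cells, 3 fell in wild-type cells and none rose, with medians of -0.15 and -0.22. All genes called down were 14.2% and 16.5%, and called up 15.4% and 19.4%, in AhR-deficient and wild-type cells. Gpnmb (chr6:49036546-49070929), a known MITF target of pigment cells and lipid-laden macrophages, had 13.8, 14.6 and 11.6 CPM with IL-4, against 59.2, 58.3 and 62.2 CPM in medium, in the AhR-deficient libraries. It had 5.35, 5.16, 6.67 and 8.63 CPM with IL-4, against 28.6, 31.8, 33.1 and 32.5 CPM in medium, in the wild-type libraries. No 2 of these 4 groups overlapped: AhR-deficient cells were above wild-type cells within each condition, and IL-4 was below medium within each genotype. The log2 fold change with IL-4 was -2.17 ± 0.15 (adjusted p = 9.07e-08) and -2.29 ± 0.13 (adjusted p = 1.09e-08), opposite in sign to those of Mitf and Tfec. Its promoter window is shown as that of the most reduced member, and that of Sqstm1, the second most reduced, beside it. Neither has CACGTG or the STAT6-type motif, so no letter is in capitals.
Gpnmb, chr6:49036268-49036567, plus strand: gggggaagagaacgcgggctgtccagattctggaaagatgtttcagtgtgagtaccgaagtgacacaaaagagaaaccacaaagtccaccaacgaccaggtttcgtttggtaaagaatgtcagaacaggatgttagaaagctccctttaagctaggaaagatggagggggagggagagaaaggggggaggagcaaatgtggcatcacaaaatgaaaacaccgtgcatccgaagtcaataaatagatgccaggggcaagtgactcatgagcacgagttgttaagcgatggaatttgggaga
Sqstm1, chr11:50210771-50211070, minus strand: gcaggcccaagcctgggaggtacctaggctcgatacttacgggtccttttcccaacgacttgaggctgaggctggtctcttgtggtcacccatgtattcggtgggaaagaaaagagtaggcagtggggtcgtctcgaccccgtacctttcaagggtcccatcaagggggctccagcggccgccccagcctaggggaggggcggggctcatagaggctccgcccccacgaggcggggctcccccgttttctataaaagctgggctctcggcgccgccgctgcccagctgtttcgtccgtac

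The X-linked Lamp2, a major glycoprotein of the lysosomal membrane, fell by 0.19 ± 0.05 (adjusted p = 0.0117) and 0.23 ± 0.04 (adjusted p = 0.00119). The AhR-deficient call is lost without number 5 or 6 with IL-4 or number 6 in medium (highest adjusted p = 0.0568). It is also lost with no filter (adjusted p = 0.0642, edgeR). Mcoln1, the lysosomal calcium channel, fell in wild-type cells by 0.22 ± 0.07 (adjusted p = 0.0216). This call is lost in 4 alternative runs, among them those without number 1 or 3 with IL-4 or number 7 in medium. In AhR-deficient cells it had -0.15 ± 0.08 (adjusted p = 0.186). Cd63, a tetraspanin of late endosomes, had 0.57 ± 0.23 (adjusted p = 0.0834) and 0.47 ± 0.20 (adjusted p = 0.0835) and passed in both genotypes with the pairs, at adjusted p of 0.00295 and 0.00383. Its named pseudogene was counted at 0.316% of Cd63, and whether reads were lost to it was not tested. Cd68, the macrophage sialomucin, was steady at 267 ± 2.31 and 262 ± 9.47 CPM in AhR-deficient cells with IL-4 and in medium, and 260.4 ± 11.03 and 246 ± 7.43 CPM in wild-type cells (SD, n = 3 and 4), with an adjusted p of 0.731 and 0.142.

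Autophagy genes fell more often than they rose: of 11, 1 rose and 4 fell in AhR-deficient cells, and 1 rose and 7 fell in wild-type cells. Of all genes tested, 15.4% rose and 14.2% fell in AhR-deficient cells, and 19.4% rose and 16.5% fell in wild-type cells. The medians were -0.14 and -0.24, beside -0.01 and 0.01 over all genes. Sqstm1 (chr11:50199366-50210827), or p62, the receptor that links ubiquitinated cargo to the autophagosome, had 432, 336 and 431 CPM with IL-4, against 1122, 724 and 1063 CPM in medium, in the AhR-deficient libraries. It had 272, 285, 338 and 275 CPM with IL-4, against 418, 584, 697 and 728 CPM in medium, in the wild-type libraries. Its libraries spread widely in medium, yet within each genotype none with IL-4 reached the lowest in medium. The log2 fold change was -1.28 ± 0.20 (adjusted p = 2.07e-04) and -1.05 ± 0.17 (adjusted p = 2.34e-04), a 2.43-fold and 2.07-fold fall. Ulk1 (chr5:110784488-110810097), the kinase that starts autophagosome formation, had 53.5, 53.3 and 65.7 CPM with IL-4, against 98.3, 91.97 and 110.2 CPM in medium, in the AhR-deficient libraries. It had 65.9, 80.9, 70.6 and 66.8 CPM with IL-4, against 114, 130.3, 104 and 127 CPM in medium, in the wild-type libraries. Again the groups did not overlap, with -0.80 ± 0.11 (adjusted p = 7.4e-05) and -0.74 ± 0.09 (adjusted p = 2.97e-05).

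Atg7, the E1-like enzyme that activates ATG8 proteins, fell by 0.50 ± 0.06 (adjusted p = 3.55e-05) and 0.42 ± 0.05 (adjusted p = 3.14e-05). Gabarapl1, an ATG8 protein, fell by 0.43 ± 0.08 (adjusted p = 0.00113) and 0.39 ± 0.07 (adjusted p = 6.38e-04). Atg16l1, which places the lipidation machinery on the membrane, was the exception and rose by 0.17 ± 0.05 (adjusted p = 0.0114) and 0.27 ± 0.04 (adjusted p = 9.31e-05). Smaller falls in wild-type cells were those of Rb1cc1, the scaffold of the ULK complex (-0.27 ± 0.05), Map1lc3b, or LC3B (-0.23 ± 0.06), and Atg5 (-0.14 ± 0.04, lost in 5 alternative runs, among them those without number 3 with IL-4 or number 1 or 2 in medium). In AhR-deficient cells these had -0.14 ± 0.06, -0.16 ± 0.07 and -0.14 ± 0.05, with adjusted p of 0.0926, 0.119 and 0.0610; Map1lc3b passed with the pairs (adjusted p = 0.0470). Becn1, Atg13 and Wipi1 passed in neither, and Wipi1 fell with the pairs in wild-type cells (log2 -0.24, adjusted p = 0.00969).

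**Figure D3:**
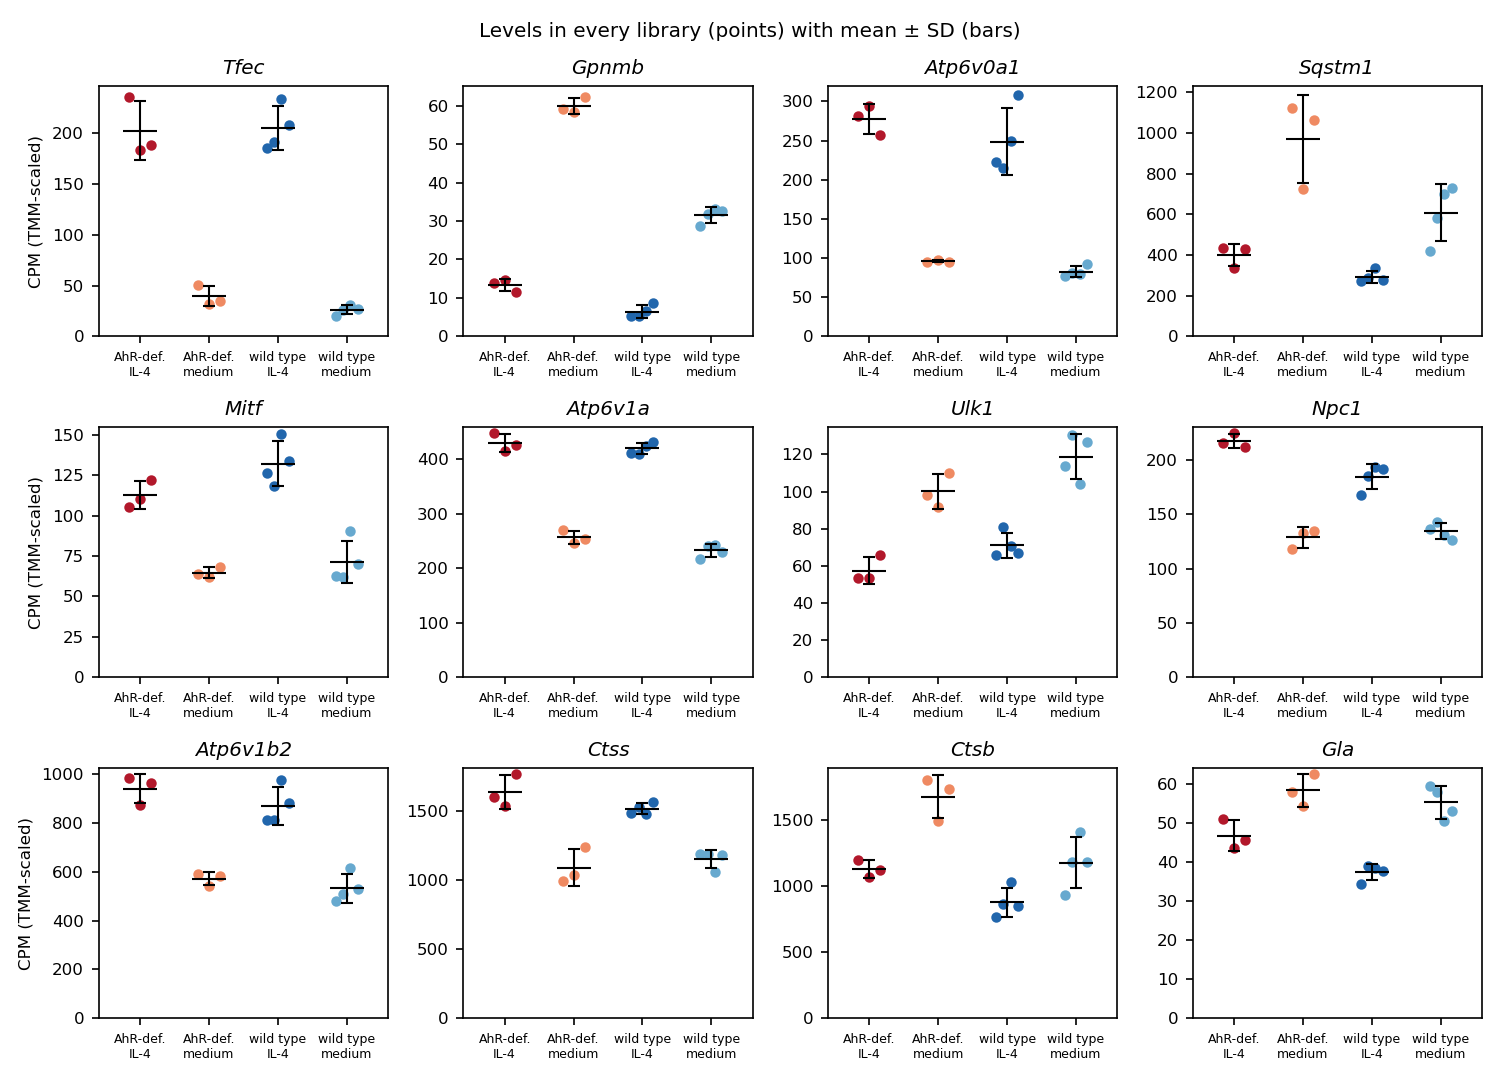
CPM in every library of the 12 members with the largest called IL-4 changes, with the group mean and SD as bars; each axis starts at 0. Tfec, Atp6v0a1, Mitf, Atp6v1a, Npc1, Atp6v1b2 and Ctss are higher with IL-4 in both genotypes, and Gpnmb, Sqstm1, Ulk1, Ctsb and Gla are lower, with overlap between the groups for Ctsb in wild-type cells.

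No member's IL-4 response was called different between the genotypes. The interaction test gave 0 of 48 members, beside 0% of all genes called, and the pairs gave 0 as well, as did DESeq2 for the members. At an unadjusted p under 0.05 there were 3 members and 558 of all genes tested. These 3 were Npc1, with an AhR-deficient minus wild-type difference in log2 fold change of 0.30 ± 0.09 (unadjusted p = 0.00535), Tfec with -0.61 ± 0.23 (unadjusted p = 0.0180) and Gla with 0.24 ± 0.11 (unadjusted p = 0.0396), each at an adjusted p of 0.9999. With the pairs, Tfec had -0.60 ± 0.10 at an adjusted p of 0.119. A member called in 1 genotype and not in the other is therefore not shown to differ between them.

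AhR-deficient and wild-type cells differed in 10 members in medium, 8 higher and 2 lower in AhR-deficient cells, beside 8.11% of all genes called, and in 2 members with IL-4, both higher, beside 1.62%. All genes called higher and lower were 4.16% and 3.95% in medium, and 0.956% and 0.664% with IL-4. Libraries that did not overlap gave 13 members higher and 1 lower in medium, beside 10.5% and 9.45% of all genes (20.0% together), and 15 higher and 2 lower with IL-4, beside 9.28% and 8.91% (18.2% together). Cell-type markers were called in the same comparisons. In medium these were Ccr2 of monocytes, at 302, 471 and 369.9 CPM in AhR-deficient and 1729, 1424, 1478 and 478 CPM in wild-type cells (log2 -1.75 ± 0.31, adjusted p = 0.00985), Adgre1 of macrophages (-0.47, adjusted p = 0.0309), Prtn3 of neutrophils (0.57, adjusted p = 0.0495) and Clec9a of dendritic cells (0.57, adjusted p = 0.00891). With IL-4 they were Ccr2 (-1.75, adjusted p = 0.0204), Irf8 (0.40, adjusted p = 0.0474) and Clec9a (0.81, adjusted p = 0.00140). Wild-type number 7 in medium was close to the AhR-deficient libraries in Ccr2. Without it, 8 members were higher and 1 lower in medium. These 2 counts are given without the share of all genes called in that fit. Over the 14 fits that left out 1 library, 58 to 884 of all genes were higher and 37 to 832 lower. The part of these markers in the differences of the members was not tested. Gpnmb was the clearest, and the only member whose calls held in every alternative run. Its levels, given above, were 1.90-fold higher in AhR-deficient cells in medium (0.93 ± 0.13, adjusted p = 0.00281) and 2.07-fold higher with IL-4 (1.05 ± 0.14, adjusted p = 0.00324). The other calls in medium were fragile. When only the 2 groups compared entered the fit, or when numbers 1 and 2 were left out, 1 member was called higher and 0 lower. Both fits rest on fewer libraries, and the second keeps only numbers 3 and 7 of the wild type. Calls over all genes fell as well, to 33 higher and 26 lower in the first and 21 and 9 in the second. Without AhR-deficient number 4 in medium 1 member was higher too, and over all 14 fits that left out 1 library 1 to 9 were higher and 0 to 4 lower. Of these 14 fits, the calls of Ctsz, Atp6v0c, Atp6v1c1 and Rb1cc1 were kept in 13, Ctsb in 11, Sqstm1 in 8, Tfec in 6, and Atp6v1h and Wipi1 in 4.

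In medium, Tfec had 50.4, 32.1 and 35.2 CPM in AhR-deficient cells, against 19.9, 26.4, 30.4 and 27.1 CPM in wild-type cells (0.59 ± 0.16, adjusted p = 0.0408). With IL-4 its difference was -0.01 ± 0.16 (adjusted p = 0.974), so the 2 genotypes stood at nearly the same level. Sqstm1 had 1122, 724 and 1063 CPM in AhR-deficient and 418, 584, 697 and 728 CPM in wild-type cells, which overlap (0.68 ± 0.18, adjusted p = 0.0382). Ctsb had 1494 to 1806 CPM in AhR-deficient and 936, 1184, 1409 and 1181 CPM in wild-type cells, which do not (0.51 ± 0.12, adjusted p = 0.0251). Ctsz did not overlap either, at 812, 670.3 and 789 CPM in AhR-deficient and 433, 527, 585 and 578 CPM in wild-type cells (0.51 ± 0.10, adjusted p = 0.0134). With IL-4, Ctsz had 873, 799.8 and 826 CPM in AhR-deficient and 589.7, 605, 727 and 626 CPM in wild-type cells (0.39 ± 0.10, adjusted p = 0.0719).

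Among V-ATPase genes, 3 were higher in AhR-deficient cells in medium. Atp6v1c1, a subunit of the V1 stalk, had 117, 116 and 118 CPM in AhR-deficient and 90.4, 95.9, 98.5 and 103 CPM in wild-type cells (0.27 ± 0.05, adjusted p = 0.0106). It was also higher with IL-4, at 126, 115 and 118 CPM in AhR-deficient and 101, 99.2, 103 and 107 CPM in wild-type cells (0.22 ± 0.05, adjusted p = 0.0435), a call kept in 3 of 14 fits that left out 1 library (highest adjusted p = 0.188). Atp6v0c had 253, 219 and 246 CPM in AhR-deficient and 166, 181, 192 and 205 CPM in wild-type cells (0.36 ± 0.07, adjusted p = 0.0136). Atp6v1h had 93.97, 83.9 and 93.03 CPM in AhR-deficient and 71.5, 78.4, 79.9 and 81.9 CPM in wild-type cells (0.21 ± 0.06, adjusted p = 0.0430). None of the 3 overlapped between genotypes in medium. The median difference over the 11 V-ATPase genes was 0.14 in medium and 0.12 with IL-4, beside 0.01 and -0.01 over all genes tested, and 0.10 and 0.10 over the 48 members.

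The 2 members lower in AhR-deficient cells in medium belong to autophagy. Rb1cc1 had 89.7, 99.9 and 90.9 CPM in AhR-deficient and 108, 125, 115 and 118 CPM in wild-type cells, which do not overlap (-0.32 ± 0.05, adjusted p = 0.00792). Wipi1, which reads the lipid PI3P on forming autophagosomes, had 10.7, 12.1 and 15.6 CPM in AhR-deficient and 14.6 to 19.5 CPM in wild-type cells, which do (-0.45 ± 0.13, adjusted p = 0.0439). Of the X-linked members, Lamp2 had 0.05 ± 0.05 (adjusted p = 0.530) and Gla 0.08 ± 0.08 (adjusted p = 0.551) in medium. With IL-4 both were higher in AhR-deficient cells without overlap, as were 9.28% of all genes, but neither passed. Gla then had 43.5 to 51.2 CPM in AhR-deficient and 34.4 to 39.05 CPM in wild-type cells (1.25-fold). Lamp2 had 543 to 591 CPM and 516.5 to 537 CPM (1.06-fold). The comparisons in medium and with IL-4 use libraries of the same numbers, which deviate together apart from the weak pair of number 7, so they are not independent of each other, and both carry the sex type stated above.

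**Figure D4:**
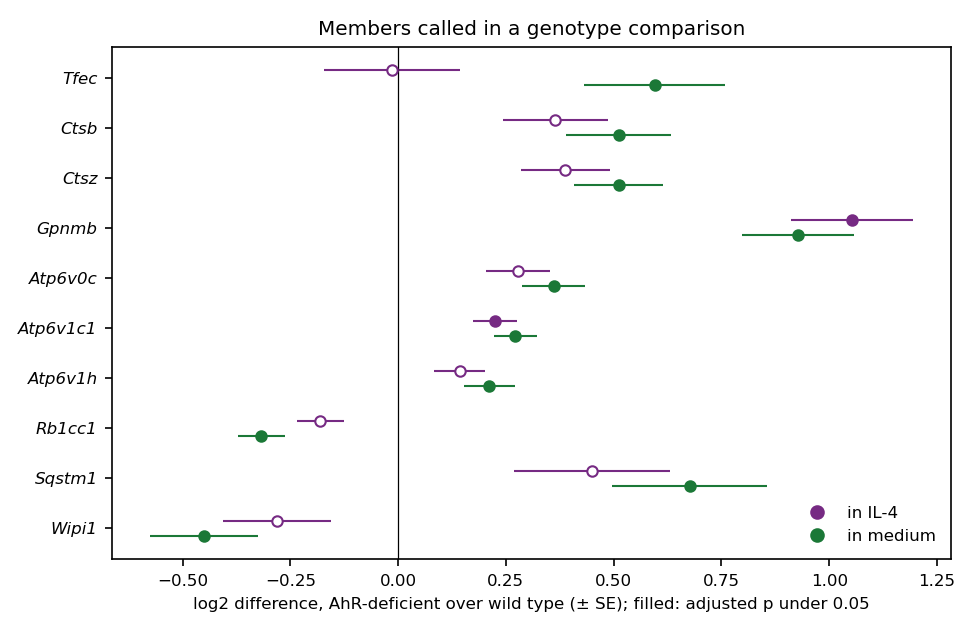
Log2 difference, AhR-deficient over wild type, of the 10 members called in a genotype comparison, with IL-4 (purple) and in medium (green), with the standard error as a bar; filled points have an adjusted p under 0.05. Gpnmb lies near 1 in both conditions, Tfec is near 0 with IL-4, and Rb1cc1 and Wipi1 lie left of 0.

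Among 108 further genes of the pathway that are not members, 101 could be tested, and 22 rose and 23 fell with IL-4 in AhR-deficient cells and 18 rose and 24 fell in wild-type cells. That is 44.6% and 41.6% called, beside 29.5% and 35.9% of all genes tested. On a list of mTORC1 at the lysosome and TFEB control, 6 of 20 genes rose and 2 fell in each genotype. That is 40.0% called, beside 29.5% and 35.9% of all genes in AhR-deficient and wild-type cells. mTORC1 is the kinase complex that holds TFEB in the cytoplasm. The list mixes its subunits with positive and negative regulators, so these counts give no direction for its activity. Rragd, the Rag GTPase known as an MiT target, rose but stayed low, at 2.68 ± 0.332 CPM with IL-4 and 0.632 ± 0.197 CPM in medium in AhR-deficient cells, and 2.22 ± 0.542 and 0.794 ± 0.405 CPM in wild-type cells. Its log2 fold changes were 2.08 ± 0.36 (adjusted p = 5e-04) and 1.48 ± 0.30 (adjusted p = 0.00159). Pla2g15, the lysosomal phospholipase, rose by 1.63 ± 0.10 and 1.60 ± 0.09 (adjusted p = 3.68e-08 and 6.7e-09). Ctsk, the osteoclast cathepsin, rose by 1.77 ± 0.32 (adjusted p = 7.81e-04) and 0.75 ± 0.27 (adjusted p = 0.0464, kept in 1 of 14 fits that left out 1 library).

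The largest falls among these were those of Acp2, an acid phosphatase (-1.53 ± 0.21 and -1.35 ± 0.18, adjusted p = 6.71e-05 and 4.31e-05), and of Slc11a1, or NRAMP1, the metal transporter of the phagosome (-1.41 ± 0.21 and -1.34 ± 0.18, adjusted p = 1.29e-04 and 4.33e-05). Igf2r, a receptor that sorts hydrolases to the lysosome, fell by 0.74 ± 0.26 (adjusted p = 0.0478, kept in 5 of 14 fits that left out 1 library) and 0.81 ± 0.23 (adjusted p = 0.0144). Optn, an autophagy receptor like Sqstm1, fell by 0.83 ± 0.20 in AhR-deficient cells (adjusted p = 0.00625) and had -0.45 ± 0.18 in wild-type cells (adjusted p = 0.0648, or 0.00104 with the pairs).

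Between genotypes in medium, 4 of the 101 were higher and 11 lower in AhR-deficient cells, beside 4.16% of all genes higher and 3.95% lower, so the higher ones were at the background. The 4 higher were Optn (0.91), Sesn2 (0.63, adjusted p = 4.62e-04), a sensor of amino acids, Tfe3 (0.36, adjusted p = 0.0373), the remaining MiT factor, and the lysosomal chloride exchanger Clcn7 (0.28). The 11 lower were the lysosomal genes Sgsh (-0.89), Scarb2 (-0.38), Ids (-0.36) and Asah1 (-0.25), and the autophagy genes Calcoco1 (-0.40), Atg14 (-0.37), Atg4c (-0.36), Pik3c3 (-0.29), Stx17 (-0.27), Ulk2 (-0.26) and Nbr1 (-0.21), all as log2 differences. Tfe3 and Ids are X-linked. With IL-4, Fnip2, a partner of the Rag regulator folliculin, was higher in AhR-deficient cells by 0.61 ± 0.12 (adjusted p = 0.0265) and Ulk2 had -0.26 ± 0.06 (adjusted p = 0.0413). Whether the genotype calls of these further genes hold without 1 library or in the other alternative runs was not tested. Over all genes, the calls in medium went from 614 higher and 583 lower to 33 and 26 with only the 2 groups fitted.

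The members held 1.80 to 2.23% of all counts in a library. Their summed level was 22066 ± 486 CPM in AhR-deficient cells with IL-4, 20492 ± 1059.7 in AhR-deficient cells in medium, 19679 ± 1009 in wild-type cells with IL-4 and 18393 ± 696 in wild-type cells in medium (SD, n = 3, 3, 4 and 4). Psap alone made up 7668, 6444, 6601 and 5891 CPM of these means, in the same order, so the sums depend strongly on 1 gene. Apart from Atp6v0d2, whose coefficient of variation within a group averaged 50.8%, the members that varied most between replicates were Cd63 (22.1%), Lipa (20.2%), Sqstm1 (17.4%) and Tfec (16.7%). Exons of 16 members share bases with another gene, 14 of them on the opposite strand. The library kit keeps the strand, but the strand setting of the counting is not given in the sources used here, so reads of such pairs may not be separated.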

How the data were processed

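RNA-seq was deposited as a table of counts per gene for 14 libraries. Per the labels, poly(A) RNA was made into libraries with a kit that keeps the strand and sequenced as read pairs. FastQC, STAR and mm10 are named in the submitters' processing notes. For the counting program, the annotation release and the strand setting, nothing is stated: not given in the sources used here. The deposited counts were matched to GENCODE M21 by gene ID (55094 IDs with their version). Genes kept by edgeR's filterByExpr (14754) were fitted with TMM scaling and the quasi-likelihood test (edgeR 4.0.16, R 4.3.3) over all 4 groups, with Benjamini-Hochberg adjustment over all genes tested. The errors beside log2 fold changes are standard errors. DESeq2 1.42.0, no filter, fits of only the groups compared and fits without each library were alternatives, and leaving out numbers 1 and 2 was chosen after seeing the data. Figures were drawn with Python 3.11.15 and matplotlib 3.10.9. The fits were tested on simulated data.

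Members and gene lists were chosen with earlier results of these data known. Values in every library are given for the 12 members with the largest called IL-4 change (mean log2 CPM of 0 or more), the MiT factors and members called in a genotype comparison, and further pathway genes are the 8 with the largest called IL-4 change and those a genotype comparison called. A gene among these 8 is not reported here. Atp6v0d2 is given in every library though below that level. Libraries of 1 number deviated together from their group means in all 7 pairs (r between 0.118 and 0.716 over 8688 genes), so the numbers were taken to pair IL-4 and medium libraries. Number 7, with the lowest r, was the exception that matched another number better than its own, and the other 6 pairs had r of 0.473 or more. Genotypes share no numbers. Promoter windows come from RefSeq on GRCm38.p6, and some lie within the gene as placed by GENCODE.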

Additional observations from a re-analysis of the deposited data

Results flagged for a closer look

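The search for a library far from the others covered the wild-type groups, with 4 libraries each. Over 71 genes, 5 of 142 such groups held one, where chance gives about 1 in 20. Among members, Ctss in wild-type cells in medium was at 1055 CPM in number 3, against 1181 to 1189 CPM in the others, and Ctsl in the same library at 158.8 CPM, against 141.8 to 144.1 CPM. Lgmn in wild-type cells with IL-4 was at 224.3 CPM in number 1, against 313.1 to 322.8 CPM. Of the further pathway genes, Scarb2 in wild-type cells in medium was at 183.8 CPM in number 3, against 215.5 to 221.7 CPM, and Acp2 at 67.33 CPM in number 1, against 124.2 to 135.4 CPM.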

How the results depend on the processing

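With the pairs, 16 members instead of 10 fell with IL-4 in AhR-deficient cells. The genotype counts depended most on the settings. In medium, members higher and lower in AhR-deficient cells went to 1 and 0 both with only the 2 groups fitted and without numbers 1 and 2. Over all genes, 614 were higher and 583 lower, against 1042 and 939 with DESeq2, 33 and 26 with only the 2 groups, and 21 and 9 without numbers 1 and 2. With IL-4, the 2 members higher became 9 with DESeq2, 6 with only the 2 groups and 1 without numbers 1 and 2. Over all genes, 141 were higher, against 505 with DESeq2, 253 with no filter, 350 with only the 2 groups and 16 without numbers 1 and 2, and 98 were lower, against 297, 173 and 9 with DESeq2, with only the 2 groups and without numbers 1 and 2. DESeq2 called 3 genes with a negative interaction, where edgeR called 0.

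Leaving out 1 library, wild-type IL-4 calls ran from 10 to 12 members up and 14 to 19 down (2464 to 2854 and 2126 to 2520 over all genes), and AhR-deficient ones from 10 to 12 up and 9 to 11 down (1906 to 2409 and 1671 to 2235). In medium, 1 to 9 members were higher and 0 to 4 lower in AhR-deficient cells (58 to 884 and 37 to 832 over all genes), and with IL-4 1 to 5 higher and 0 lower (13 to 330 and 10 to 203). The interaction stayed at 0. Members that turned sign had not passed, and are given as the lowest and highest log2 value without 1 library. In AhR-deficient cells with IL-4 these were Atp6v1c1 (-0.0028 to 0.0653), Ctsl (-0.0721 to 0.0108), Glb1 (-0.0221 to 0.052) and Wipi1 (-0.188 to 0.0936). In wild-type cells they were Atg13 (-0.042 to 0.051, and -0.0092 without numbers 1 and 2), Atp6v1e1 (-0.0199 to 0.0233, and 0.0067), Ctsl (-0.0361 to 0.0823), Glb1 (-0.0118 to 0.0386) and Lipa (-0.2383 to 0.149). Between genotypes with IL-4 it was Tfec (-0.1371 to 0.056). The cause was not tested. No paired analysis was possible between genotypes because they share no numbers. At 0.0516 to 1.32 CPM, depth limits Atp6v0d2.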
